A study of Mus musculus with 6 samples.

Results

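The genes described here are 9 genes of thyroid hormone action: the hormone receptors Thra and Thrb, their partner Rxra, the corepressor Ncor1, the deiodinases Dio2 and Dio3, and the hormone-induced genes Klf9, Hr and Thrsp. They were listed for their known roles and read from a thyroid array table of 22206 probe sets by gene symbol, each through its brightest probe set. Of the 9, 8 had a named probe set, with 1 each. The table names 19505 genes in all. Ncor1 was not analysed here. The arrays compared thyroid lobes of 3 Foxe1flox/flox/Cre mice, called knockouts here, with those of 3 Cre control mice, 1 lobe and 1 array per animal. All 6 animals had the C57BL/6J strain background, carried the tamoxifen-inducible Cre and were given tamoxifen at 0.05 g/kg on 5 consecutive days at 6 to 8 weeks of age, and thyroid was taken 2 weeks after treatment. The controls therefore share the Cre and the drug with the knockouts and differ in lacking the floxed Foxe1. The sources used here do not name the promoter that drives Cre.

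The thyroid secretes mostly thyroxine, which deiodinases convert to the active triiodothyronine or inactivate. Triiodothyronine binds nuclear receptors that sit on DNA, usually paired with a retinoid X receptor. Without hormone the receptors hold corepressors such as Ncor1 at their target genes, and hormone exchanges these for coactivators. The preferred site is a direct repeat of the hexamer AGGTCA.

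Regulatory sequence upstream of the start sites is shown for 3 hormone-responsive members (Klf9, Thrsp and Thrb), for the deiodinase gene Dio2 and for Hcn2, the single gene of the wider pathway that passed the test. Sequences come from RefSeq promoters of assembly GRCm38.p6, in which 7 of the 9 members had an entry, with 10 start sites. Each run below is the 250 bases before a start site (the first listed, where a gene has several), 5′ to 3′ on the gene's strand. Klf9 lies at chr19:23140976-23141225 (plus strand), Thrsp at chr7:97417551-97417800 (minus strand), Thrb at chr14:17660710-17660959 (plus strand), Dio2 at chr12:90739039-90739288 (minus strand) and Hcn2 at chr10:79716384-79716633 (plus strand). Capitals mark AGGTCA in either orientation, or, in Dio2, the cyclic AMP response element TGACGTCA.
Klf9: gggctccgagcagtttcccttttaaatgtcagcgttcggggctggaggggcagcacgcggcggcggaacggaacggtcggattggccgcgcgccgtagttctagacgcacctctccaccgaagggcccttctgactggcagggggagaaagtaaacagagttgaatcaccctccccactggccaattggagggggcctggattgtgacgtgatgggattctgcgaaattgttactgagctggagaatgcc
Thrsp: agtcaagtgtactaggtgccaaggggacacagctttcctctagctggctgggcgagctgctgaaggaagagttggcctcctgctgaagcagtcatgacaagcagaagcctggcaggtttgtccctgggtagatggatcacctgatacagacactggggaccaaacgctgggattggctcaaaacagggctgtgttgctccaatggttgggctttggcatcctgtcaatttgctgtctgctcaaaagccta
Thrb: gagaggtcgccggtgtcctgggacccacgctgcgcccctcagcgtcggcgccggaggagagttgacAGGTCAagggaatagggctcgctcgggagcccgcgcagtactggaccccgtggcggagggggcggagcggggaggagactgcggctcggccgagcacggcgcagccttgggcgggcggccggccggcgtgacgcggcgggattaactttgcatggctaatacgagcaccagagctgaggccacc
Dio2: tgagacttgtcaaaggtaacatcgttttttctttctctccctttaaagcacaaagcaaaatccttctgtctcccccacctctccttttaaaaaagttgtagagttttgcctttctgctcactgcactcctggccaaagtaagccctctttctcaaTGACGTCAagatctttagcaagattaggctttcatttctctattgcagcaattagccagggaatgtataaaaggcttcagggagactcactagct
Hcn2: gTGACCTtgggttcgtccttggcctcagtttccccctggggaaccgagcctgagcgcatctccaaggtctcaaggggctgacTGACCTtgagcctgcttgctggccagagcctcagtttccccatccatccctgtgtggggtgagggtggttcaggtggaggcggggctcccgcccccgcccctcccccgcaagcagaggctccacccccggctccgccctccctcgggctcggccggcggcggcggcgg

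The hexamer was found in 2 of the 10 member windows, 1 of Thrb and 1 of Rxra, and in 14.0% of all 32851 windows of the same length. In Hcn2 it occurred at 2 places. The full repeat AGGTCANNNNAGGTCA was in 0 of the 10 and in 0.0152% of all windows. The element TGACGTCA was in 1 of the 10, that of Dio2, and in 1.55% of all. Both strands were searched, and the repeat contains the hexamer. These matches describe letters in a window and no more.

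The arrays carried thyroid signal. Of the 8 follicular cell markers on the list, 7 were measured, and thyroglobulin (Tg) read between 18.67 and 19.27 on every array. The mean of the 7 lay between 8.60 and 10.66 in the controls and between 11.30 and 11.76 in the knockouts. Foxe1 read 7.60, 7.19 and 7.04 in controls against 3.33, 2.88 and 3.04 in knockouts. Lobes also held transcripts of parathyroid, muscle, fat, airway and squamous epithelium, in unequal amounts. The parathyroid hormone gene Pth ran from 3.56 in knockout 1 to 19.68 in control 2. The mean of 7 squamous epithelium markers lay between 16.06 and 16.22 in the controls. In the knockouts it lay between 16.27 and 16.93, highest in knockout 3. Of these 7 markers 6 had positive differences and 1 a negative one, with 0 called. Y-linked genes had signal on 4 arrays and none on control 1 and knockout 3 (mean of 3 probe sets 3.04 and 2.65, against 8.03 to 8.30), so each group holds 1 array without it. The 3 arrays per group limit the precision of every value. The limma p-values rest on the spread between these arrays, drawn toward a spread shared by all probe sets. With 1 lobe and 1 array per animal, differences between animals, dissections and arrays cannot be separated in it.

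No hormone receptor, deiodinase or hormone-induced member passed the test. With limma fitted on the whole table, at a Benjamini-Hochberg adjusted p of 0.05, 0 of the 8 measured members were called, where 0.338% of all probe sets were. Their adjusted p ran from 0.447 to 0.962, and 0 had an unadjusted p under 0.05, which 12.7% of all probe sets had. An ordinary t statistic called 0 of all probe sets, so it says nothing about the members. In 0 of the 8 did the knockout arrays stand wholly above or below the controls, against 18.1% of all probe sets (9.28% above, 8.78% below). Differences, always knockout minus control on the log2 scale, were negative for 7 members, and 53.2% of all probe sets were negative. The members' median difference was -0.18 and that of all probe sets -0.02. In size alone the median difference was 0.20 for the members and 0.21 for all probe sets. In whole-lobe RNA, fewer cells of a type and less RNA per cell cannot be told apart.

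**Figure D1:**
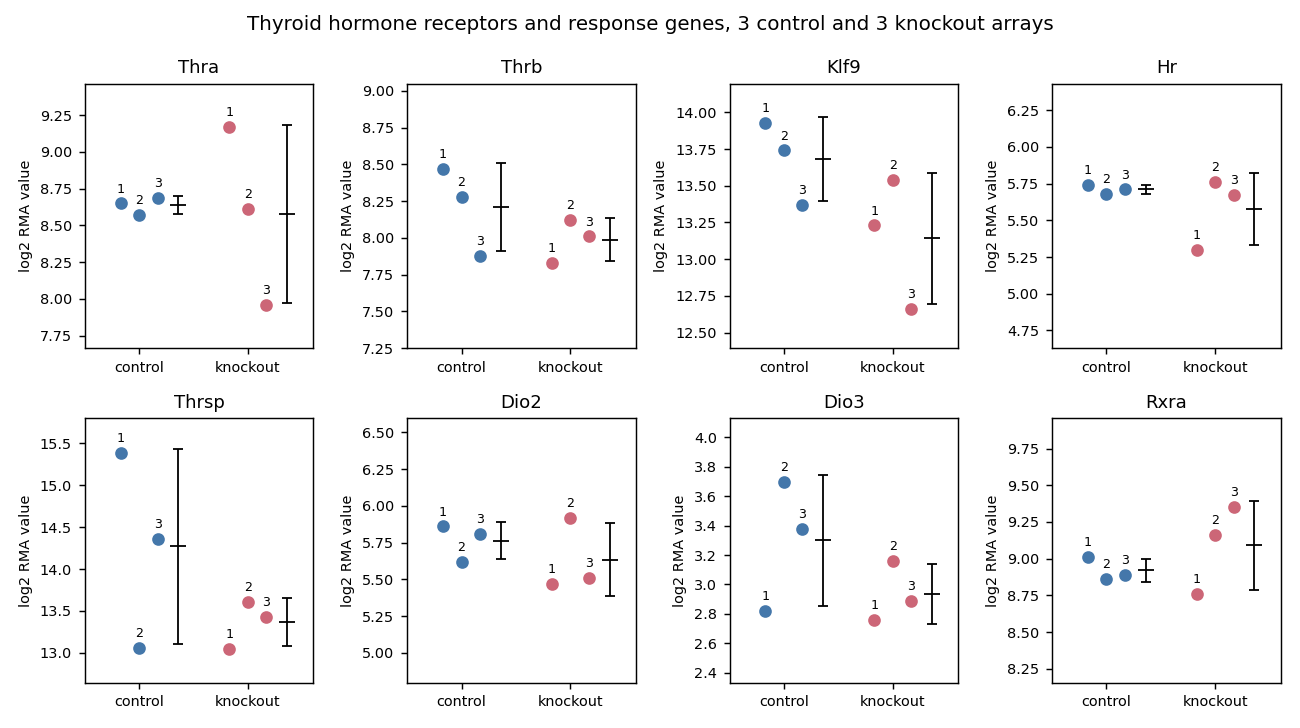
Log2 RMA values (vertical axes, a separate range for each gene) of the 8 measured members on 3 control and 3 knockout arrays. Points are arrays numbered by replicate, and bars are the mean and SD of 3. The groups overlap for every one of the 8 genes, and knockout 3 reads lowest of all arrays for Thra and Klf9.

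Neither receptor gene passed the test. Thra, which encodes the receptor that predominates in heart, bone and brain, read 8.65, 8.57 and 8.69 in controls against 9.17, 8.61 and 7.96 in knockouts. The controls lay close together, and the knockouts lay on both sides of them. The difference of Thra was -0.06 (SE 0.29, 95% interval -0.71 to 0.60, limma adjusted p = 0.962). Its sign rests on knockout 3, since without that array the difference was 0.25, and with array weights it was 0.11. Among the 4 arrays with Y-linked signal it was 0.26, and between the other two it was -0.69.

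Thrb, the receptor of liver and of the pituitary feedback on thyrotropin, read 8.47, 8.28 and 7.88 in controls against 7.83, 8.12 and 8.01 in knockouts. All 3 knockouts lay within or just below the range of the controls. The difference of Thrb was -0.22 (SE 0.21, 95% interval -0.70 to 0.26, limma adjusted p = 0.725), and -0.09 without control 1 and -0.39 without control 3. Each receptor gene was read by 1 probe set, so its isoforms were not separated.

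Rxra, the retinoid X receptor that pairs with both, was the single member with a positive difference. It read 9.01, 8.86 and 8.89 in controls against 8.76, 9.16 and 9.35 in knockouts. Knockouts 2 and 3 were above every control and knockout 1 below them. The difference of Rxra was 0.17 (SE 0.21, 95% interval -0.30 to 0.64, limma adjusted p = 0.797), and 0.04 without knockout 3 and 0.34 without knockout 1.

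Neither deiodinase gene in the group stood clear of the controls. Dio2, whose enzyme activates thyroxine and which responds to cyclic AMP, read 5.86, 5.62 and 5.81 in controls against 5.47, 5.92 and 5.51 in knockouts. Knockout 2 was the highest and knockout 1 the lowest array. The difference of Dio2 was -0.13 (SE 0.20, 95% interval -0.58 to 0.32, limma adjusted p = 0.845), and -0.05 without knockout 1 and -0.27 without knockout 2. Dio3, whose enzyme inactivates the hormone, read 2.82, 3.70 and 3.38 in controls against 2.76, 3.16 and 2.89 in knockouts. All of these lay between percentiles 6.72 and 28.3 of their arrays, and 5 of the 6 were below their array's lower quartile, so a low level of Dio3 could not be told from background. The difference of Dio3 was -0.36 (SE 0.25, 95% interval -0.94 to 0.21, limma adjusted p = 0.611), and -0.16 without control 2 and -0.60 without control 1. It was 0.07 between the 2 arrays without Y-linked signal.

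Klf9 and Thrsp had the largest differences of the 8 members, both negative and neither past the threshold. Klf9, a zinc finger factor gene induced by thyroid hormone and also by glucocorticoids, read 13.93, 13.74 and 13.37 in controls against 13.23, 13.54 and 12.66 in knockouts. Knockout 2 lay between the controls and knockout 3 was the lowest array. The difference of Klf9 was -0.54 (SE 0.26, 95% interval -1.14 to 0.07, limma adjusted p = 0.447). It was -0.30 without knockout 3 and -0.73 without knockout 2. Among the 4 arrays with Y-linked signal the Klf9 difference was -0.17, and between the 2 without it -1.27.

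Knockout 3 was also the lowest array for markers of muscle and stroma. The mean log2 value of 10 skeletal muscle markers was 16.11 in knockout 3, 16.88 and 16.93 in the other knockouts, and 17.24 to 17.35 in the controls. All 10 muscle differences were negative, with 0 called and 0 markers below the lower quartile on all arrays. The mean of 6 measured fibroblast markers was 9.68 in knockout 3, 11.45 and 10.72 in knockouts 1 and 2, and 10.87 to 12.02 in the controls. All 6 fibroblast differences were negative, with 0 called and 0 markers below the lower quartile. On other arrays the orders differed. Thra was highest in knockout 1 (9.17), where the muscle mean was below every control. From control 1 to control 3 Klf9 fell from 13.93 to 13.37, while the fibroblast mean rose from 10.87 to 12.02. The part of these tissues in the values of Klf9 and Thra was not tested.

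Thrsp, which promotes fatty acid synthesis in liver and fat, read 15.39, 13.06 and 14.36 in controls against 13.05, 13.61 and 13.43 in knockouts. Control 1 was the highest array, while control 2 was as low as the lowest knockout. The difference of Thrsp was -0.91 (SE 0.50, 95% interval -2.04 to 0.23, limma adjusted p = 0.499). It was -0.35 without control 1 and -1.51 without control 2 (adjusted p of 0.806 and 0.154). Among the 4 arrays with Y-linked signal it was -0.38, and between the 2 without it -1.96.

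The spread of Thrsp among controls ran beside that of fat cell genes. Fasn, the fatty acid synthase gene, was read at 16.62, 14.47 and 15.92 in controls against 14.88, 15.01 and 15.04 in knockouts, so that controls 1, 3 and 2 stood in the same order as for Thrsp. The mean of 8 measured adipocyte markers was 11.97, 10.83 and 11.12 in the controls and lay between 10.83 and 10.92 in the knockouts. All 8 adipocyte differences were negative, with 0 called and 0 markers below the lower quartile on all arrays. Among the knockouts the order differed, with Thrsp highest in knockout 2 and Fasn in knockout 3. Fat was not alone in this: the mean of 5 measured airway markers was 16.88 in control 1 and 16.00 and 15.96 in controls 2 and 3. It lay between 15.06 and 15.25 in the knockouts. The part of fat or airway tissue in the Thrsp values was not tested.

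**Figure D2:**
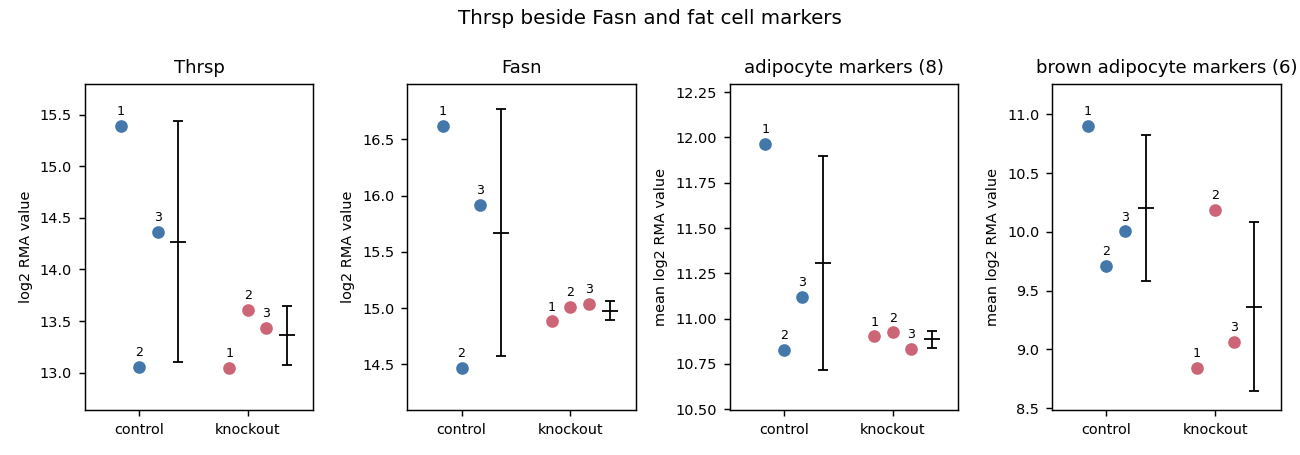
Log2 RMA values of Thrsp and Fasn, and the mean log2 RMA value of 8 adipocyte and 6 brown adipocyte markers (which include Ucp1 and Dio2), by array, with bars for the mean and SD of 3. Control 1 is the highest array in all 4 panels, and Thrsp reads 15.39 there against 13.06 in control 2.

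Hr, the hairless corepressor gene, which hormone induces directly in brain, read 5.74, 5.68 and 5.71 in controls against 5.30, 5.76 and 5.67 in knockouts. Only knockout 1 was apart from the rest, on the low side. The difference of Hr was -0.13 (SE 0.19, 95% interval -0.57 to 0.30, limma adjusted p = 0.831), and 0.005 without knockout 1. Its values lay between percentiles 47.0 and 51.0 of the arrays.

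**Figure D3:**
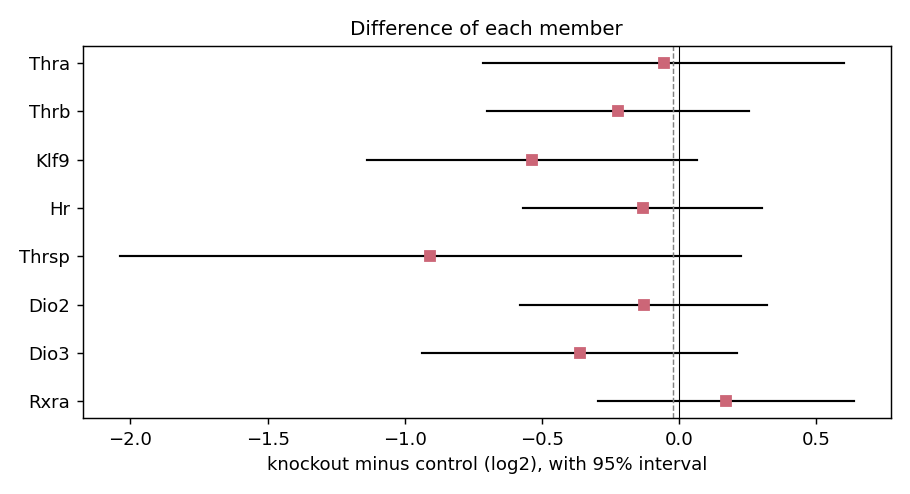
Knockout minus control differences on the log2 scale (horizontal axis) with 95% intervals from limma for the 8 measured members. The dashed line is the median of all probe sets, -0.02. Every interval includes 0, the widest being that of Thrsp, from -2.04 to 0.23.

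The wider pathway and genes linked to the members were read through 11 lists holding 90 measured genes besides the members (of 93 listed). The lists of the KLF family, of glucocorticoid-induced genes and of clock genes were added as relatives or neighbours of members, not as lists of hormone action. The counts over the 90 mix both kinds. Of these 90, 1 rose and 0 fell by the same test, against 0.252% of all probe sets that rose and 0.0856% that fell. Differences were positive for 46 and negative for 44, with a median of 0.01, where 53.2% of all probe sets were negative. An unadjusted p under 0.05 was reached by 18 of the 90, beside 12.7% of all probe sets. The groups did not overlap for 17 of the 90, 8 higher and 9 lower, beside the 18.1% of all probe sets.

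The gene that rose was Hcn2, which encodes a pacemaker channel that thyroid hormone induces in the heart. The lists were chosen with earlier results of these data known, so its call is no independent evidence of a hormone response. Hcn2 read 3.30, 3.55 and 3.49 in controls against 5.57, 5.58 and 6.06 in knockouts, with no overlap. The rise of Hcn2 was 2.29 (SE 0.20, 95% interval 1.83 to 2.75, limma adjusted p = 0.00997). Its controls lay between percentiles 18.5 and 25.4 of their arrays, close to background, so the 4.89-fold difference may be limited by it. The difference was 2.06 among the 4 arrays with Y-linked signal and 2.76 between the 2 without. The call was lost without knockout 1 (difference 2.37, adjusted p = 0.0647) and with an ordinary t statistic (adjusted p = 0.277).

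Apart from Hcn2, 20 of the 21 measured hormone-induced genes, a list that includes Klf9, Hr and Thrsp, did not pass. The list had 6 positive and 15 negative differences and a median of -0.25, where 53.2% of all probe sets were negative. Among the negative, 1 gene was below the lower quartile on all arrays. The list also shares genes, Ucp1 among them, with the muscle and brown fat marker lists. Among the 6 positive were Cpt1a at 0.71 (limma adjusted p = 0.4025) and Me1 at 0.37 (limma adjusted p = 0.595). Of genes chosen here after their values were seen, Slc2a4, the insulin-responsive glucose transporter of muscle and fat, differed by -0.997 (adjusted p = 0.262). Rcan2, a calcineurin regulator gene, differed by -0.91 (adjusted p = 0.308) and Mbp, of myelin, by -1.33 (adjusted p = 0.183). The groups did not overlap for 4 of the 21 genes, 1 higher and 3 lower, beside 18.1% of all probe sets. These 4 are Hcn2, Slc2a4, Rcan2 and Mbp. Slc2a4, Rcan2 and Mbp were lowest in knockout 3, as were the muscle markers. Without that array they differed by -0.60, -0.51 and -1.06. The uncoupling protein gene Ucp1 of brown fat ranged from 8.26 in knockout 1 to 14.57 in control 1 (difference -1.91, SE 1.24, limma adjusted p = 0.581), its lowest and highest values across the 6 arrays. Without knockout 1 the Ucp1 difference was -0.54, without control 1 -1.08 and without knockout 2 -3.32. Dio1, whose transcript hormone raises in liver, read 8.57, 8.05 and 6.06 in controls against 8.21, 8.37 and 8.69 in knockouts (difference 0.86, limma adjusted p = 0.572). Control 3 was the one low array for Dio1, and the difference without it was 0.11. Of the 6 hormone-repressed genes, among them Thrb, Dio2 and the thyrotropin subunit gene Tshb, all had negative differences and 0 passed. The differences lay between -0.26 (Myh7, a slow myosin gene) and -0.07, and 53.2% of all probe sets were negative. Cga and Trh, also among the 6, read low, at percentiles 12.1 to 31.0 and 27.9 to 35.6 of the arrays. Cga was below the lower quartile on 5 arrays, so its sign was read near background.

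**Figure D4:**
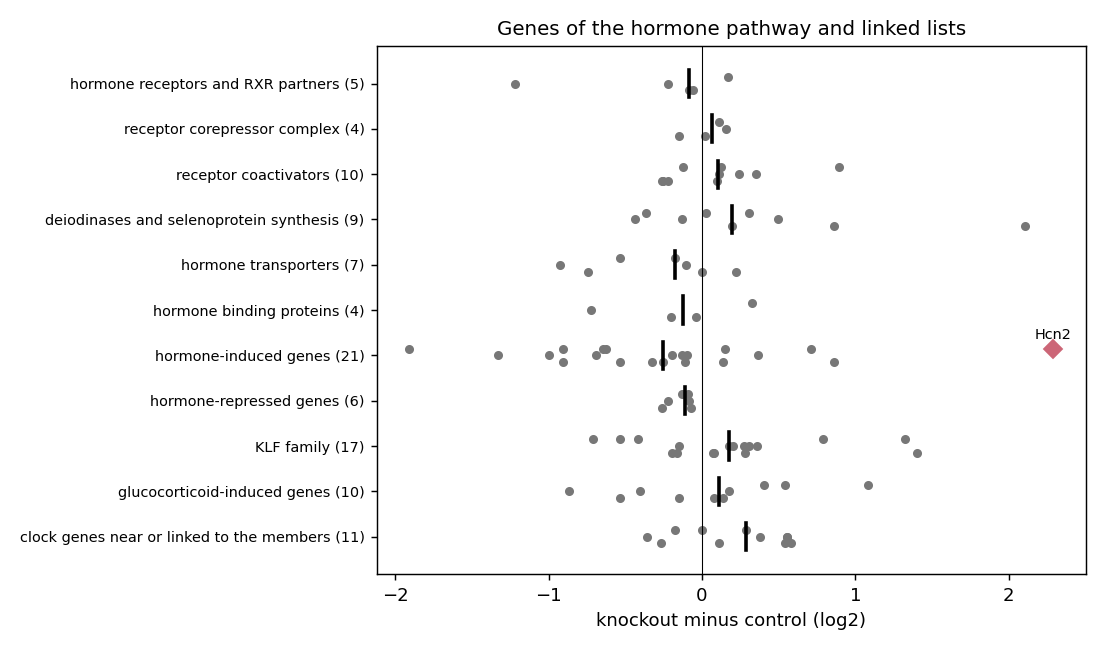
Knockout minus control differences (log2, horizontal axis) for every measured gene of the 11 lists, with the number measured in brackets and a black bar at each list's median; genes may stand in several lists. Hcn2, drawn as a diamond at 2.29, is the single gene past the threshold.

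Among receptor partners, Rxrg, a retinoid X receptor found in skeletal muscle, had the largest difference of the 5 genes on its list. Rxrg read 6.43, 6.21 and 7.18 in controls against 5.39, 5.81 and 4.96 in knockouts, without overlap. The difference of Rxrg was -1.22 (SE 0.31, limma adjusted p = 0.149), and knockout 3 was its lowest array, as for the muscle markers above. The part of muscle in it was not tested. Rxrb, the third of these receptors, differed by -0.09. Of 10 coactivators 0 passed. Ncoa3 was at 8.22, 8.67 and 8.53 in controls against 9.71, 9.31 and 9.08 in knockouts, all 3 knockouts being higher (difference 0.89, SE 0.23, limma adjusted p = 0.149). Kat2b, a histone acetyltransferase gene, differed by 0.35 (adjusted p = 0.488) and Ncoa4 by -0.26 (adjusted p = 0.662). The 4 measured genes of the corepressor complex differed by -0.15 to 0.16, among them Tbl1x (0.16) and Tbl1xr1 (0.11), with adjusted p of 0.787 or more.

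Genes of hormone transport and iodine recycling also stayed short of the threshold. Slc16a10, which carries triiodothyronine and aromatic amino acids across the cell membrane, read 7.05, 7.25 and 6.71 in controls against 6.05, 6.46 and 6.27 in knockouts. All 3 knockouts were lower, and the difference of Slc16a10 was -0.74 (SE 0.21, limma adjusted p = 0.184). Of the other measured transporters, Slc7a8 differed by -0.92 (adjusted p = 0.455), or by -0.48 without control 2 and -0.59 without knockout 3, and Slco1a4 by -0.53 (adjusted p = 0.366). The 7 measured transporters had 2 positive and 5 negative differences, where 53.2% of all probe sets were negative. Of the 7, 2 were below the lower quartile on all arrays. Of 9 genes of deiodination and selenoprotein synthesis 0 passed. Iyd, which recycles iodide from iodotyrosines, read 11.56, 11.49 and 9.46 in controls against 13.05, 12.65 and 13.12 in knockouts (difference 2.10, SE 0.50, limma adjusted p = 0.136). Iyd and Dio1 are both among the 7 measured follicular cell markers, all of which had positive differences. The mean of the 7 was 10.66, 10.41 and 8.60 in the controls, so that control 3 was low for it as for Iyd and Dio1. The part of follicular cell content in the Iyd and Dio1 values was not tested. Eefsec, the elongation factor for selenocysteine, differed by -0.44 (adjusted p = 0.355) and Secisbp2, which binds selenocysteine insertion elements, by 0.49 (adjusted p = 0.41). Of the 4 binding proteins, Serpina7, the thyroxine-binding globulin gene, differed by -0.73 (adjusted p = 0.265), Alb by 0.32 and Ttr by -0.20. Without control 2 Serpina7 differed by -0.46. Serpina7 lay between percentiles 14.3 and 37.3 of the arrays, Ttr between 7.27 and 28.4 and Alb between 14.8 and 40.7. They were below the lower quartile on 4, 4 and 3 arrays, near background.

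**Figure D5:**
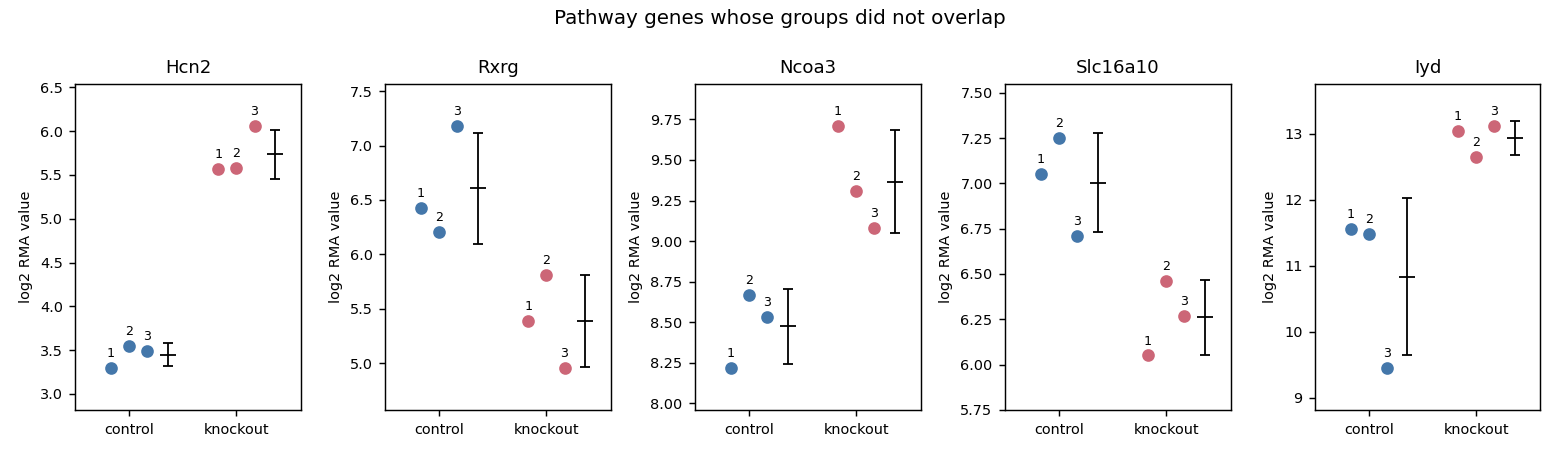
Log2 RMA values of 5 pathway genes by array (points numbered by replicate, bars for the mean and SD of 3, a separate vertical range for each gene). These 5 were picked because their groups do not overlap, as was so for 17 of the 90 listed genes and 18.1% of all probe sets. Only Hcn2, at 3.30 to 3.55 in the controls and 5.57 to 6.06 in the knockouts, passed the threshold.

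Klf9 was set beside its family and beside other glucocorticoid-induced genes. Of the 17 KLF genes 0 passed, with 11 positive and 6 negative differences. Klf6 differed by 1.32 (SE 0.27, limma adjusted p = 0.0924), from 11.25 ± 0.39 to 12.58 ± 0.38 (SD, n = 3 each). Klf4 differed by 1.40 (adjusted p = 0.273), or by 0.73 without control 1, and Klf12 by -0.71 (adjusted p = 0.161). The groups did not overlap in these 3 of the 17 genes, beside 18.1% of all probe sets. Of the 10 glucocorticoid-induced genes, which include Klf9, 0 passed. Zbtb16 differed by -0.87 (adjusted p = 0.331), or -0.48 without knockout 3, its lowest array and that of Klf9, while Errfi1 differed by 1.08 (adjusted p = 0.272).

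The clock genes next to the receptors did not pass. Nr1d1, a repressor of the circadian clock that overlaps Thra on the opposite strand, read 14.73, 14.97 and 15.14 in controls against 14.91, 14.69 and 14.43 in knockouts (difference -0.27, SE 0.21, limma adjusted p = 0.652, and -0.15 without knockout 3). Whether the probes separate the strands was not given in the sources used here. Nr1d2, the neighbour of Thrb, read 12.44, 12.59 and 12.42 in controls against 12.28, 12.18 and 11.92 in knockouts, all 3 knockouts being lower (difference -0.36, limma adjusted p = 0.471). Of the 11 clock genes on the list 0 passed. Bhlhe40 and Clock each differed by 0.56 (adjusted p of 0.27 and 0.39).

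For the 3 members whose values span at least 1 log2 unit, the genes with the most similar pattern were found by Pearson's r across the 6 arrays among 18584 named probe sets. For Thra these were Tnfaip6, Car3 and Ifnar1, with coefficients of 0.99, and 41 probe sets had a coefficient over 0.95. For Klf9 they were Cyp2c70, Scgb1b19 and Pde1a, with coefficients of 0.99, and 85 exceeded 0.95. For Thrsp they were Glyctk, Pcyt2 and Cwc15, with coefficients of 0.99, and 69 exceeded 0.95. The arrays share both groups and all their tissue differences. Cyp2c70 lay between percentiles 20.4 and 28.0 of the arrays and Glyctk between 1.05 and 16.9, near background.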

How the data were processed

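Thyroid RNA from 1 lobe of each of 6 mice was hybridised to 1 array each, from 250 ng of RNA with an integrity number of at least 7, per the labels' protocols. Per the submitters' processing notes the authors ran RMA in Affymetrix Expression Console, and the deposited values are on the log2 scale, 1 per probe set. RMA equalises the distributions of arrays, which removes changes shared by most transcripts and compresses low and very high values. Settings, version and annotation build were not given in the sources used here. Array medians lay between 5.62 and 5.69, and no detection calls or scan dates were used.

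Groups came from the sample titles. Probe sets were named through the platform annotation and RefSeq (GRCm38.p6): 19572 carry 1 symbol, 2634 none and 0 several. All probe sets were tested without filtering by lmFit and eBayes of limma 3.58.1 (R 4.3.3), two-sided, with Benjamini-Hochberg adjustment and a threshold of 0.05. The fit was tested on simulated data. An exact permutation test of 3 against 3 cannot go below 0.1 and was not used. Python 3.11.15 and matplotlib 3.10.9 drew the figures.

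The members and lists were chosen with earlier results of these data known. Named genes were the members, Foxe1, Nr1d1, Nr1d2, all genes of a list past the threshold or, where none passed, up to 3 with the smallest p, and the 3 most similar genes of members spanning at least 1 log2 unit. Tg, Pth, Rxrb, Tshb, Cga, Trh, Fasn, Ucp1, Dio1, Slc2a4, Rcan2, Mbp, Cpt1a and Me1 were named outside this rule. Alternatives were array weights, median centring, quantile normalization again, a variance trend (also with robust fitting), probe sets above the lower quartile or the median alone, those with a symbol alone, an ordinary t statistic, a replicate block, Y-linked signal as a covariate, averaging the probe sets of a gene, a threshold of 0.1 and leaving out each array. The arrays with and without Y-linked signal alone were added after seeing the data. Same-numbered arrays did not deviate together (correlations of -0.01, 0.08 and 0.02 for numbers 1 to 3).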

Additional observations from a re-analysis of the deposited data

How the results depend on the processing

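No member was called under any of the alternatives tried, with a smallest adjusted p of 0.154 (without control 2). Averaging probe sets could change no member's value, since each had 1 probe set. Dio3 was left out when only probe sets above the lower quartile or the median were kept, and Hr when only those above the median were. The 75 calls over all probe sets became 118 with a variance trend and robust fitting, 260 at an adjusted p of 0.1 and 0 with an ordinary t statistic, and 43, 9 and 16 without controls 1, 2 and 3 and 2, 15 and 4 without knockouts 1, 2 and 3. The members' median difference of -0.18 ranged from -0.28 to -0.11 without 1 array and was -0.41 between the 2 arrays without Y-linked signal. With the replicate block, which the labels do not show to pair animals, the smallest adjusted p among the members was 0.343, and Hcn2 was still called (adjusted p = 0.0236).

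Signs turned for 7 of the genes named. Thra was at 0.11 with array weights, between -0.35 and 0.25 without 1 array (0.25 without knockout 3) and 0.26 on the arrays with Y-linked signal, and Dio3 was at 0.07 on those without it. With array weights Tnfaip6, Car3 and Ifnar1, similar to Thra, were at 0.17, 0.038 and 0.045. Without 1 array they ran from -0.46 to 0.35, -0.30 to 0.14 and -0.38 to 0.19, the upper values being without knockout 3. Hr ran from -0.23 to 0.005 and Alb from -0.012 to 0.72, with the turned sign without knockout 1. The count of listed genes called was 0 with probe sets above the median alone, which leaves out Hcn2. It was 2 at an adjusted p of 0.1, where Klf6, from the KLF family list, joins. The cause of these changes was not tested.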
